A study of Homo sapiens with 2 samples.

Results

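The blood lineage genes PTPRC, MS4A1, CD79A, CD3E, CD3D, SPI1, CD14, IKZF1 and LCP2 were examined in CAMA-1, a breast adenocarcinoma cell line, where they were taken as a closed contrast to the genes of the epithelium. GENCODE release 44 annotates 20033 protein-coding genes, of which these are 9. They were chosen by name, but with earlier results of these data known, so the choice was not blind to the data. Open chromatin was profiled by ATAC-seq, which uses Tn5, a transposase that cuts DNA where it is accessible and leaves adapters for sequencing. The cells were untreated, grown as adherent cultures in serum-supplemented medium, and 50000 of them were lysed for each of 2 biological replicates, which form a single condition. Both replicates came from this 1 line, and no blood cells were analysed here. A locus was defined as the gene body on hg38 with 10 kb either side, and a peak at the transcription start site (TSS) as one within 1 kb of any annotated TSS of the gene. Peaks had been called by the authors in each replicate, 245736 in replicate 1 and 259745 in replicate 2, and their strength is given as the deposited fold enrichment over background. The lowest fold enrichment of any listed peak was 2.76 in replicate 1 and 2.65 in replicate 2, so accessibility below these levels was not detectable. In a bulk library, a peak present in few cells and a weaker peak present in all cells cannot be told apart. Read depth is not given in the peak lists.

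Blood cell identity rests on surface receptors, their signalling adaptors and lineage transcription factors whose genes are used mainly in hematopoietic cells, although some, such as CD14, are also used outside them. PTPRC encodes CD45, the tyrosine phosphatase found on nearly all nucleated blood cells. MS4A1 (CD20) and CD79A (a chain of the B cell receptor complex) mark B cells, CD3E and CD3D (chains of the T cell receptor complex) mark T cells, and LCP2 (SLP-76) is an adaptor that carries T cell receptor signals. CD14 is the lipopolysaccharide co-receptor of monocytes, and SPI1 (PU.1, an ETS factor) and IKZF1 (Ikaros, a zinc finger factor) direct myeloid and lymphoid development. An active promoter is normally free of nucleosomes around its TSS and is then open to Tn5.

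To show what open and closed starts looked like in sequence, 3 windows from 250 bases before to 49 after a TSS are given 5′ to 3′ on the strand of the gene, with CpG dinucleotides in capitals. The CD14 window at the canonical TSS (chr5:140633126-140633425, hg38, reverse strand) lay entirely under a peak in both replicates. The PTPRC window at the canonical TSS (chr1:198638790-198639089, forward strand) and the window at the most 5′ IKZF1 TSS (chr7:50303818-50304117, forward strand) held no base of a peak in either replicate.
CD14: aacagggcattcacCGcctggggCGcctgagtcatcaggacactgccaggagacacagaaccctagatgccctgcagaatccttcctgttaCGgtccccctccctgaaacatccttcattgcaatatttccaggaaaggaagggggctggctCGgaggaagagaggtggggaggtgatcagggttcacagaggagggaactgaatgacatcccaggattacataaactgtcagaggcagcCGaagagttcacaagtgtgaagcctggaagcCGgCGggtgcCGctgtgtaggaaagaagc
PTPRC: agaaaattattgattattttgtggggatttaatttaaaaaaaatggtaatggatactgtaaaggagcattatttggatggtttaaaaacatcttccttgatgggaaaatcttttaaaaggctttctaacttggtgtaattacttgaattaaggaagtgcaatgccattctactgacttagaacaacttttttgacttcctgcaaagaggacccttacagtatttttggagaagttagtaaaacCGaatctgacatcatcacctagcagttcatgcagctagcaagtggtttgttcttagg
IKZF1: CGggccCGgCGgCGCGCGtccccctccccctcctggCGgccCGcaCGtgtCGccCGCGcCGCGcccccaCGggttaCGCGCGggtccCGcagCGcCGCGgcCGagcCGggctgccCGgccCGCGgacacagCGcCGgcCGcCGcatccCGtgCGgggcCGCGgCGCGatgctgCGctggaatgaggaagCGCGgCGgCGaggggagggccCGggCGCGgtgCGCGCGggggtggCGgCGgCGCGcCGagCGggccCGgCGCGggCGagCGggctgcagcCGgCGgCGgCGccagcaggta
The CD14 window holds 8 CpGs, the PTPRC window 1 and the IKZF1 window 63.

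A peak at an annotated TSS was called in both replicates for 3 of the 9 genes, CD3D, CD14 and LCP2, or 33.3%, and in neither replicate for the other 6. Among all 20033 protein-coding genes, 79.3% had such a peak in both replicates. The description as closed chromatin held for the TSSs of PTPRC, MS4A1, CD79A, CD3E, SPI1 and IKZF1 at the threshold of the peak caller and not for those of the other 3. When the TSS of the canonical transcript alone was considered, 2 of 9 genes had a peak, CD3D and CD14, against 73.5% of all protein-coding genes. This definition was added after the data were seen. With the TSS most 5′ in each gene the count was 2 of 9 (CD3D and CD14) against 71.7%, and with the 50000 strongest peaks of each replicate it was 2 of 9 (CD14 and LCP2) against 61.5%. With peaks of a −log10 q of at least 10 it remained 3 of 9, against 76.9%. As there was only 1 condition, nothing was tested between samples.

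CD14 had the TSS peak of highest mean fold enrichment among the 9, ahead of LCP2 in replicate 2 but not in replicate 1. In replicate 1 it spanned 140633028 to 140633653 on chromosome 5 with a fold enrichment of 47.9, and in replicate 2 it spanned 140632908 to 140633685 with a fold enrichment of 52.6. Its height, the number of reads stacked at the highest base, was 207 (exact Poisson 95% confidence interval 180 to 237) in replicate 1 and 237 (208 to 269) in replicate 2. These intervals overlap and cover counting error only. The peak covered the canonical TSS at 140633175, and it stood at percentile 91.4 of all peaks in replicate 1 and 92.7 in replicate 2. Among protein-coding genes whose TSS peak was called in both replicates, the mean fold enrichment of CD14, 50.2 ± 3.37 (SD, n = 2), was at percentile 47.5, near the middle of their order.

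The LCP2 peak lay inside the gene. It spanned 170267881 to 170268191 on chromosome 5 in replicate 1 and 170267700 to 170268200 in replicate 2, with fold enrichments of 48.3 and 46.9 and heights of 209 (182 to 239) and 211 (183 to 241). It fell in intron 8 of the canonical transcript, 554 bp in replicate 1 and 373 bp in replicate 2 from the nearest of a pair of internal coding starts, at 170267296 and 170267327. The canonical TSS at 170297777 had no peak within 1 kb. The closest peak in replicate 1 was 9723 bp upstream, and in replicate 2 a peak of fold enrichment 3.76 lay 6103 bp downstream. LCP2 is therefore counted as open only through its internal starts.

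CD3D had a weaker peak in its first intron, at 118341798 to 118342058 on chromosome 11 in replicate 1, while replicate 2 had it at 118341779 to 118342063. The fold enrichments were 13.8 and 16.4, and the heights were 59 (44.9 to 76.1) and 73 (57.2 to 91.8), with overlapping intervals. The peak lay 647 bp and 642 bp downstream of the canonical TSS at 118342705, which was itself not covered. By mean fold enrichment it stood at percentile 13.1 of protein-coding genes that had one in both replicates. The sequence of the region (chr11:118341779-118342063, hg38, forward strand) is shown because it was the only peak at the CD3D locus, and it held none of the 6 motifs searched.
CD3D: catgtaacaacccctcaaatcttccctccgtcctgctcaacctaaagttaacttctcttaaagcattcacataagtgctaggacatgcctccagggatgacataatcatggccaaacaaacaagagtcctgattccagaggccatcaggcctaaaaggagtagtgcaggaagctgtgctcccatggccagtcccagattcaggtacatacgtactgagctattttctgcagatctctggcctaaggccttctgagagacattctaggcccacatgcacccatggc

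**Figure D1:**
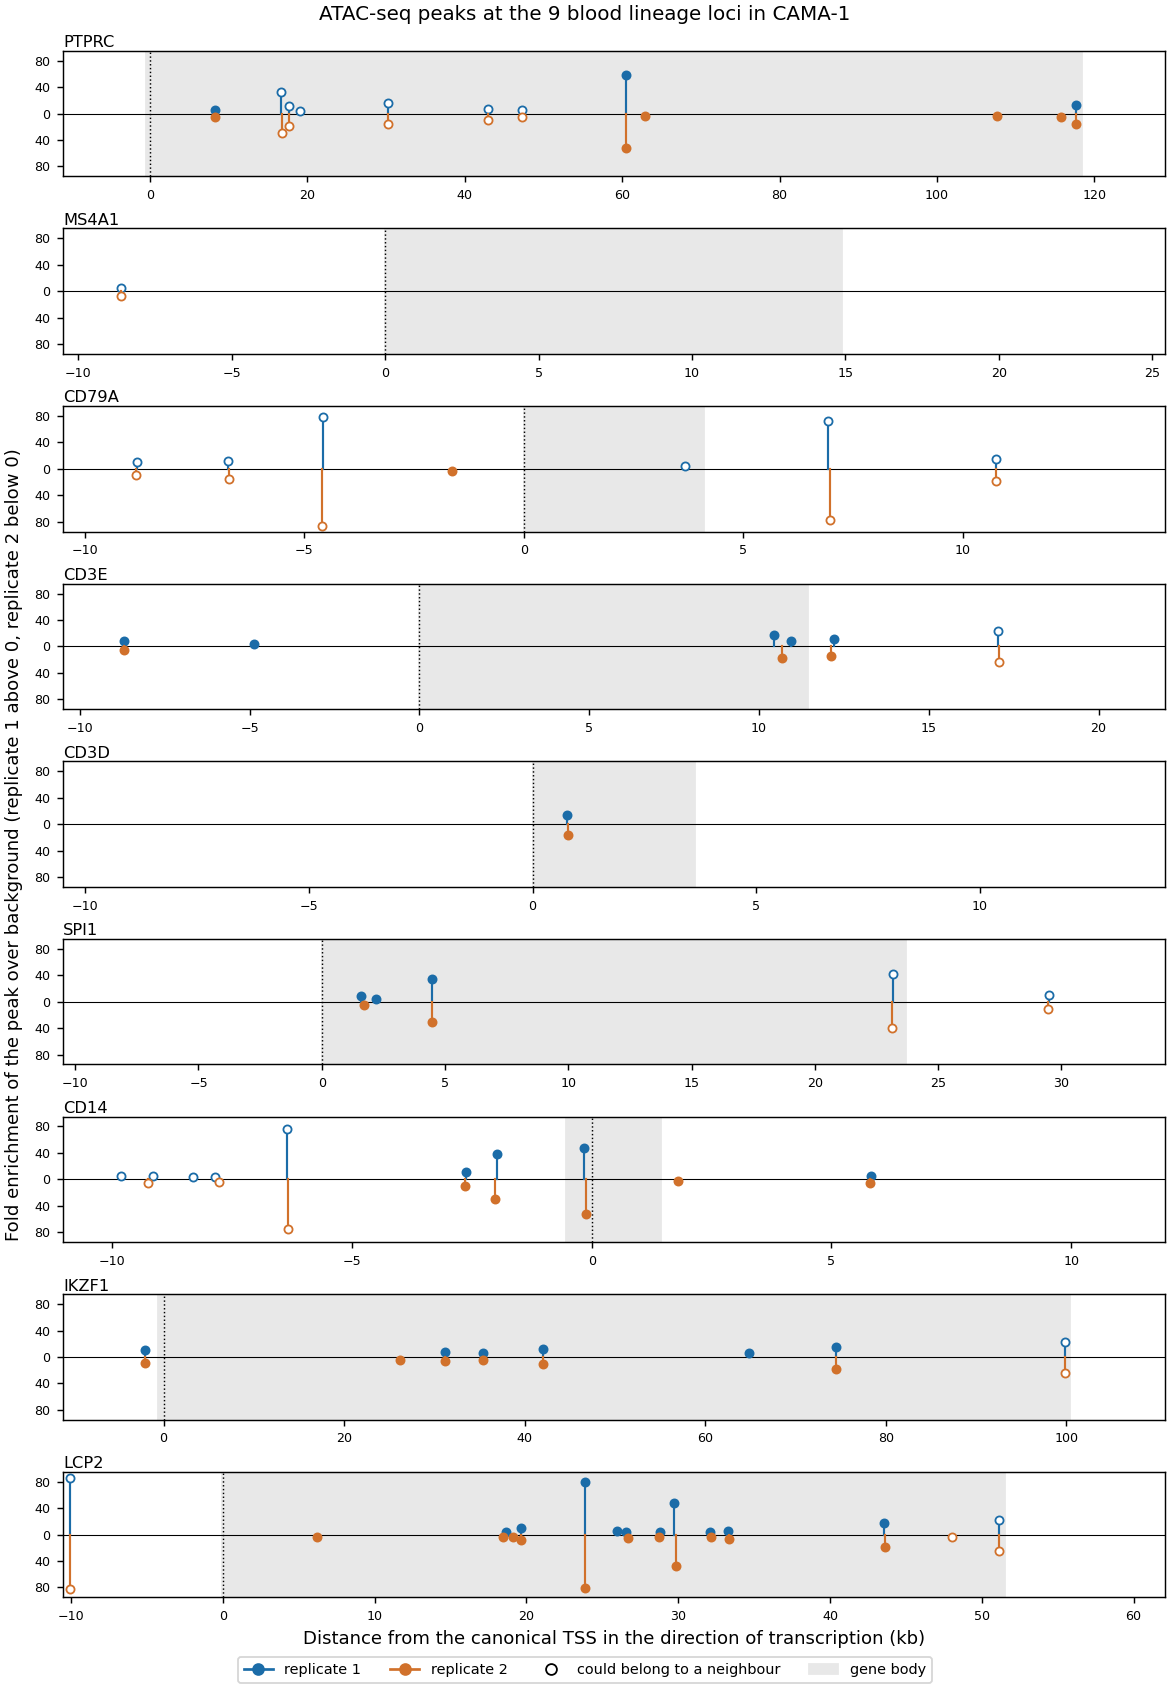
Fold enrichment of each called peak (vertical axis, replicate 1 above 0 and replicate 2 below 0) against its distance from the canonical TSS in kb, in the direction of transcription, for the 9 loci with 10 kb either side. Grey marks the gene body, the dotted line the canonical TSS and open circles the peaks that could belong to a neighbouring gene. Only CD14 has a peak at the dotted line, and MS4A1 has none in its body.

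The distances just inside and just outside the limit of 1 kb are given as a description. The CD3D peak lay 554 bp in replicate 1 and 549 bp in replicate 2 from the nearest annotated CD3D TSS. The nearest peaks of SPI1 lay 1141 bp in replicate 1 and 1393 bp in replicate 2 from its nearest TSS, those of IKZF1 1297 bp and 1249 bp. At CD79A a peak of fold enrichment 3.32, called in replicate 2 only, lay 1532 bp upstream, and the PTPRC peaks nearest to any of its 19 TSSs lay 2382 bp and 2375 bp away. The nearest CD3E peaks within the gene lay 2842 bp and 2858 bp from a CD3E TSS. A limit of 3 kb therefore counted 7 of the 9 genes, against 85% of all protein-coding genes, and a limit of 100 bp counted CD14 alone, against 73.2%.

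Across the 9 loci, which together span 511 kb, 56 peaks were called in replicate 1 and 56 in replicate 2. Merging peaks that shared at least 1 bp gave 46 regions called in both replicates. Of these, 3 were at TSSs of the members, 20 had their midpoint in an intron of the member and 5 in an exon, 8 were within 1 kb of a TSS of another gene, 4 were in a flank inside another gene and 6 were in a flank between genes. The mean fold enrichment of the 46 regions, which include those at TSSs of other genes, had a median of 14.3. The median of all 215195 regions of the genome was 9.84. By class, the median was 47.6 at member TSSs, 23.7 in member exons and 8.51 in member introns. It was 18.8 at TSSs of another gene, 13.5 in flanks inside another gene and 10.1 in flanks between genes. The peaks without a counterpart in the other replicate, 9 in replicate 1 and 10 in replicate 2, were weak. Their fold enrichments ran from 3.22 to 5.52 in replicate 1, and those of replicate 2 lay between 3.10 and 4.86.

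In all, 20 of the 46 regions could belong to a neighbour, because they were within 1 kb of its TSS, inside it or nearer to its TSS than to one of the member. For 12 of them the neighbour was protein-coding. The other 26 regions were nearest to the member, and they came from 7 of the 9 loci. CD79A and MS4A1 had none.

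At PTPRC, 8 regions were called in both replicates, all in the gene body. The strongest spanned 198699256 to 198699888 on chromosome 1, around exon 5 of the 33 exons of the canonical transcript, with fold enrichments of 58.4 and 51.3 and heights of 253 (223 to 286) and 231 (202 to 263). It stood at percentiles 93.9 and 92.4 of all peaks. In intron 2, a pair of neighbouring regions reached fold enrichments of 33.1 and 28.7 at 198655498 to 198655999 and of 12 and 19.2 at 198656442 to 198656970. The counting intervals of the second did not overlap between replicates, with heights of 51 (38 to 67.1) and 86 (68.8 to 106). All 5 PTPRC regions that could belong to another gene were in intron 2 and lay nearer to the TSS of the lncRNA ENSG00000261573 or of the pseudogene PEBP1P3, both inside PTPRC, and neither of these TSSs had a peak. The canonical PTPRC TSS at 198639040 was 8200 bp and 8210 bp from the nearest peak in the respective replicates.

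Neither B cell gene had a region called in both replicates in its gene body. At MS4A1 a single peak was called in each replicate, with fold enrichments of 4.37 and 7.52, and it lay 8455 bp and 8410 bp upstream of the nearest MS4A1 TSS inside MS4A5, a member of the same gene family. No peak lay in the MS4A1 body of 14.9 kb. At CD79A all 5 regions could belong to a protein-coding neighbour. The strongest, from 41871688 to 41873738 on chromosome 19 with fold enrichments of 78.7 and 86.9, was at the 3′ end of RPS19, a ribosomal protein gene. A region of fold enrichments 72.9 and 77.0 lay at a TSS of ARHGEF1, and another at 41887798 to 41888276 lay inside ARHGEF1, with 14.5 and 17.9. The remaining CD79A regions, with fold enrichments of 10.1 and 9.07 and of 12.4 and 15.7, lay within 1 kb of the microRNA gene MIR6797, inside RPS19. Within the CD79A body, replicate 1 alone had a peak of fold enrichment 4.6, over exon 5.

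At CD3E, 4 regions were called in both replicates and none was nearer than 2842 bp to a CD3E TSS. One region spanned the end of intron 8 and the last exon, 118314986 to 118315860 on chromosome 11, with strongest peaks of fold enrichment 17 and 17.9. The strongest, at 22.8 and 24.1, lay downstream within 1 kb of a processed pseudogene, ENSG00000254992. CD3D held only the intronic region described above, and CD3G, the third CD3 chain gene, whose body starts within 10 kb of CD3D, had no TSS peak in either replicate.

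At SPI1, 4 regions were called in both replicates and its canonical TSS at 47378547 on chromosome 11 had no peak within 1 kb. A region in intron 2 from 47373887 to 47374244 had fold enrichments of 34.3 and 31.2, and it was nearest to SPI1. The strongest region, from 47355029 to 47355749 over the last exon, had fold enrichments of 41.4 and 39.4 and was 2327 bp from the TSS of MYBPC3, the cardiac myosin binding protein gene, which had no TSS peak, so by distance it could belong to MYBPC3. At IKZF1, 6 regions were called, none within 1 kb of a TSS. The strongest lay over exon 8, the last, with fold enrichments of 22.3 and 25, and was nearer to the TSS of the lncRNA ENSG00000285165 than to one of IKZF1. The one nearest to a TSS lay upstream at 50302534 to 50302819 on chromosome 7, with 10.1 and 9.07.

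At CD14, the TSS peak was joined by a region from 140634970 to 140635394, 1270 bp upstream of the most 5′ TSS, with fold enrichments of 37.7 and 29.2. A further region at 140635594 to 140635998 had 11 and 10.2. Both were nearer to CD14 than to its neighbours NDUFA2, a subunit of respiratory complex I, and TMCO6. The strongest region of the locus, with fold enrichments of 75.5 and 75.4, was at the TSS of TMCO6 and inside NDUFA2.

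At LCP2, 10 regions were called, the most of any of the 9 loci, and 9 of them were in the gene body. One of these, from 170246307 to 170246951 over the last exon, had fold enrichments of 21.9 and 24.8. It lay inside the protein-coding gene C5orf58 as well and could belong to it. A region of 1641 bp in intron 6, from 170273096 to 170274736, had fold enrichments of 79.2 and 81.2 and heights of 343 (308 to 381) and 366 (329 to 405), and stood at percentiles 96.8 and 97.0 of all peaks. It was 5769 bp from the nearest LCP2 TSS and 32870 bp from the TSS of any other gene. The region of highest mean fold enrichment at all 9 loci, 84.1 ± 2.05 (SD, n = 2), lay 9685 bp upstream of LCP2 over the TSS of the lncRNA ENSG00000288615, next to that of LINC01366.

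Regions over the last exon were seen at 5 of the 9 genes, PTPRC, CD3E, SPI1, IKZF1 and LCP2, with mean fold enrichments from 14.5 for PTPRC to 40.4 for SPI1. Those of SPI1, IKZF1 and LCP2 could belong to a neighbour, and those of PTPRC and CD3E were nearest to the member. Only regions over 1 kb from every TSS of the gene were counted. Of 18916 protein-coding genes with several exons, 22.9% had such a region. This count was made after the peaks at the members had been seen, so it is a description only.

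The number of peaks per 100 kb of locus, as the mean of both replicates, ran from 2.86 at MS4A1 to 38.7 at CD14. The median over the 9 loci was 10.3, and that over all protein-coding loci was 13.7. MS4A1, CD3D, IKZF1, PTPRC and SPI1 were below the latter, at percentiles 10.0, 15.3, 22.1, 27.8 and 39.4 of all protein-coding loci, and CD3E, LCP2, CD79A and CD14 were above it, at percentiles 55.9, 61.2, 73.8 and 89.1. The high values of CD79A and CD14 include the peaks of their neighbours. Peaks covered from 0.934% of the MS4A1 locus to 19.5% of the CD14 locus in replicate 1, and from 1.12% to 18.5% in replicate 2. A peak somewhere in the locus was called in both replicates for all 9 genes and for 93.7% of protein-coding genes.

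**Figure D2:**
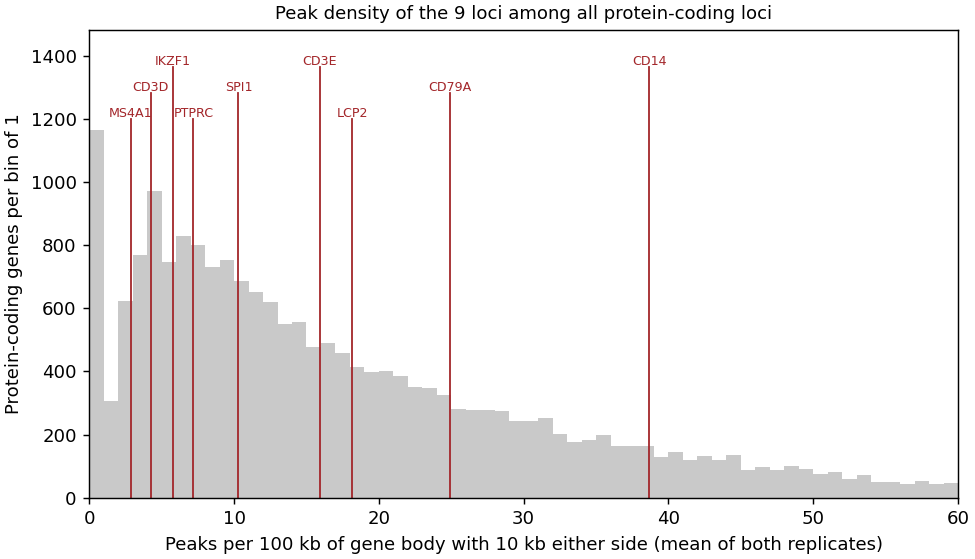
Histogram of peaks per 100 kb of gene body with 10 kb either side (horizontal axis, mean of both replicates) over all protein-coding genes (vertical axis, genes per bin of 1), with the 9 members as red lines. The 307 genes at 60 or more are not drawn. The members lie on both sides of the median of 13.7, from MS4A1 at 2.86 to CD14 at 38.7.

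The TSS counts were set beside those of 3 other lists. All 18 luminal breast genes, which mark the epithelium that the labels name as the cell type, had a TSS peak in both replicates, also at the canonical TSS. The 5 strongest were ELF3 (mean fold enrichment 229), MUC1 (210.3), CLDN4 (163), KRT8 (143) and TFAP2A (128), which encode an epithelial ETS factor, a mucin, a tight junction claudin, a keratin and the AP-2α factor. Of 45 other blood lineage genes, 32, or 71.1%, had a peak at an annotated TSS in both replicates, BLK had one in replicate 2 only, and 12 had none. At the canonical TSS the count was 15 of 45, or 33.3%. Of 18 genes of endothelial, mesenchymal, liver, muscle, pancreatic and neural lineages, 11, or 61.1%, had a TSS peak and 8, or 44.4%, one at the canonical TSS. Over all protein-coding genes the shares were 79.3% for any annotated TSS and 73.5% for the canonical TSS. The 71.1% of the other blood lineage genes is near the first of these.

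CD247, PTPN6 and CORO1A were among the 5 other blood lineage genes with the strongest TSS peaks. The strongest TSS peak of CD247, which encodes the zeta chain of the T cell receptor complex, had 138 and 146. PTPN6, the phosphatase SHP-1, had 111 and 126, and CORO1A, an actin-binding coronin, had 56.4 and 65.0. Each of these genes also had a peak within 1 kb of its canonical TSS in both replicates. Whether that peak was the strongest one was not recorded. CD3G, CD2, CD5, CD4, LAT, CD28, CD33, FCGR1A, LYZ and TYROBP had no TSS peak in either replicate. The CD3 and zeta chain genes of the T cell receptor complex thus ranged from no TSS peak at CD3E and CD3G, through 15.1 ± 1.81 (SD, n = 2) at CD3D, to 142 ± 5.42 (SD, n = 2) at CD247. The CD3 genes lie on chromosome 11 and CD247 on chromosome 1. The authors report copy-number aberrations in this line, and fold enrichments were not adjusted for copy number here. Its part in such differences between genes was not tested.

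Of the genes of other lineages, APOA1 (80.4), GFAP (70.5), COL1A1 (70.3), PDGFRB (65.9) and CDH5 (60.9) had the highest mean fold enrichments. Among these, GFAP alone had no peak within 1 kb of its canonical TSS in both replicates. The strongest TSS peaks of APOA1 and COL1A1 also covered a TSS of another gene, APOA1-AS and ENSG00000249406 respectively. PECAM1, TEK, ALB, MYH6, MYH7 and NEUROD1 had no TSS peak in either replicate.

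**Figure D3:**
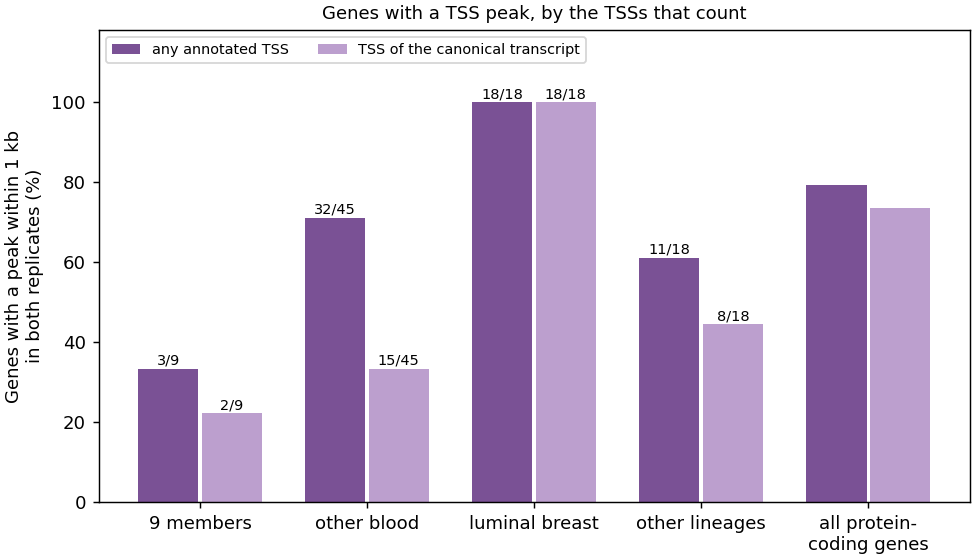
Share of genes with a peak within 1 kb in both replicates (vertical axis, percent), for any annotated TSS (dark bars) and for the TSS of the canonical transcript (light bars), in the 9 members, the 3 other lists and all protein-coding genes. Counts stand above the bars. The other blood list goes from 71.1% to 33.3% between the definitions, the luminal breast list stays at 100%.

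**Figure D4:**
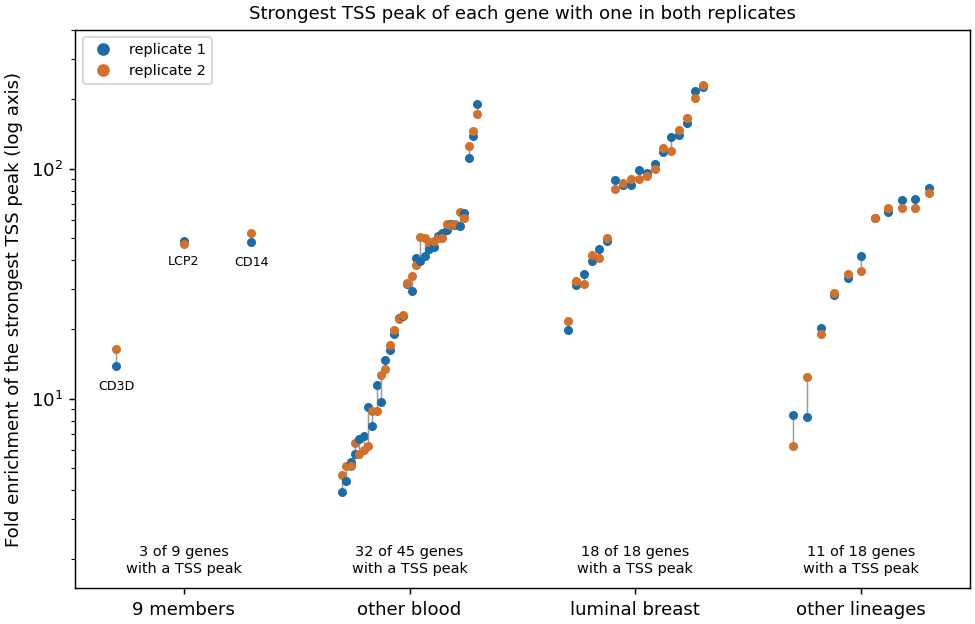
Fold enrichment of the strongest TSS peak (vertical log axis) of each gene with such a peak in both replicates, by list, with blue points for replicate 1, orange points for replicate 2 and a grey line joining them. The 3 members lie between 13.8 and 52.6, and the luminal breast genes reach 232.

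A feature that the choice of genes did not use is the CpG content of the promoters, taken from 250 bases before to 49 after the most 5′ TSS. The ratio of observed to expected CpGs was below 0.6 for 8347 of all 20033 protein-coding genes, whose median was 0.696. It was below 0.6 for 8 of the 9 members, from 0.106 at CD3E to 0.252 at SPI1. All 3 genes with a TSS peak, CD3D, CD14 and LCP2, were among these 8. The ratio is not that of the open sequence, since their peaks lay mostly or wholly outside this window. For CD3D and LCP2 it held 0 bases of a peak in both replicates. For CD14 it held 3 in replicate 1 and 35 in replicate 2. The CD14 window at the canonical TSS, which lay entirely under a peak, had a ratio of 0.350. Of all genes below 0.6, 62.5% had a TSS peak in both replicates, and of those at or above it 91.3%. Below 0.6, such a peak was found for 3 of 8 members, 22 of 34 other blood lineage genes, 8 of 13 genes of other lineages and 12 of 12 luminal breast genes. IKZF1 was the exception among the members, with a ratio of 1.15, at percentile 98.5 of all genes, and a GC content of 85.7%. It was one of 1014 CpG-rich genes without a TSS peak in both replicates, and its window shown above lay under no peak. The CpG limit of 0.6 was set after the peak lists had been read.

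**Figure D5:**
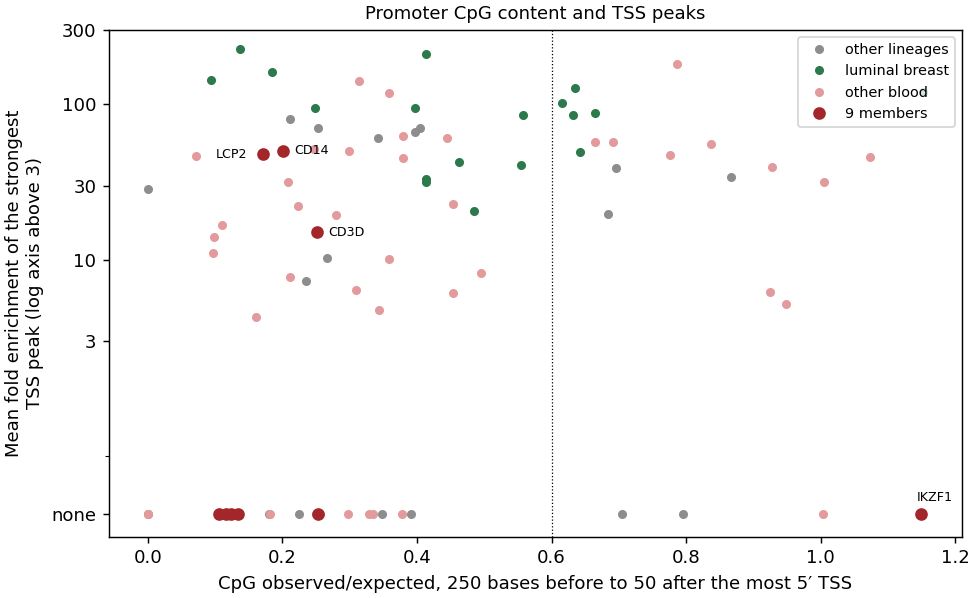
Mean fold enrichment of the strongest TSS peak (vertical axis, log above 3, with genes lacking one in both replicates at none) against the observed to expected CpG ratio (horizontal axis), for the 9 members and the 3 other lists. The ratio is that of the window at the most 5′ TSS, which need not hold the peak. The dotted line marks 0.6. IKZF1 sits alone at 1.15 without a peak, and the other members lie at 0.252 or below.

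Motif letters were searched on both strands in 300 bp around the midpoint of each of the 46 regions. The AP-1 letters TGANTCA occurred in 11 regions (23.9%, against 13.5% of all 215195 regions), the PU.1 letters GAGGAAGT in 4 (8.70%, against 2.29%), the forkhead letters TGTTTAC in 4 (8.70%, against 7.38%), the CTCF core (CC, any 3 letters, AGG, any letter, GGC) in 3 (6.52%, against 5.13%), the GATA letters AGATAAG in 2 (4.35%, against 3.64%) and the ETS letters ACCGGAAG in 1 (2.17%, against 0.428%). With 46 regions these are descriptions of few matches, and a match is not a bound site. Of the 3 regions with the CTCF core, the letters bound by an insulator protein, those of SPI1 and LCP2 are shown as 300 bp windows on the forward strand of hg38, with matches in capitals. They lie in intron 2 of SPI1 (chr11:47373915-47374214) and at the internal starts of LCP2 (chr5:170267800-170268099).
SPI1: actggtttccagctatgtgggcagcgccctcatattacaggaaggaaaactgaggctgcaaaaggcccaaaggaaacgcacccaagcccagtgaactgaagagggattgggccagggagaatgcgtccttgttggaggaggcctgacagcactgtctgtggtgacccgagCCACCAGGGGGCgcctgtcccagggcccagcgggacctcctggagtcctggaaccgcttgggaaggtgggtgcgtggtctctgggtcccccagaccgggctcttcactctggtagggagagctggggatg
LCP2: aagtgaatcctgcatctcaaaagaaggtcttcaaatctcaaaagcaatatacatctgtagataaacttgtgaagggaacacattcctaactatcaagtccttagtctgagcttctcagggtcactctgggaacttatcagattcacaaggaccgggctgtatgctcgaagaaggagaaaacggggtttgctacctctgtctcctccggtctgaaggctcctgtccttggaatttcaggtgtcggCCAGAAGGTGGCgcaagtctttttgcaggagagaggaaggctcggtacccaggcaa
In the RefSeq promoter table (GRCh38.p14), 6 of the 9 genes had an entry. That of IKZF1 is at a start inside the gene, at 50319048 on chromosome 7, whereas its canonical TSS is at 50304716. It holds 0 CpGs and is not the IKZF1 window shown above. Among the 6 entries, the PU.1 letters occurred in 1, that of LCP2, against 2.59% of all 35116 promoters. The forkhead letters occurred in 1, the same promoter, against 3.42%. The AP-1 letters occurred in 2, those of CD3D and CD14, against 7.71%. The ETS, CTCF core and GATA letters occurred in 0 of the 6, against 2.17%, 4.64% and 2.68%.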

How the data were processed

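Open chromatin was measured by ATAC-seq in 2 biological replicates of CAMA-1. Per the labels and the submitters' processing notes, the authors trimmed reads with Trim Galore 0.6.5, aligned them with Bowtie2 2.3.5.1 to hg38 and called peaks with MACS2 2.2.6 in each replicate. The peak caller's settings, the treatment of duplicate reads and excluded regions are not given in the sources used here. For each peak the authors deposited a fold enrichment, which is a ratio of stacked reads to background. They also deposited the −log10 p-value, the −log10 q-value and a score, which equals 10 times the latter with decimals dropped. No read counts were used, and depth is unknown from these files, so a deeper library may hold more weak peaks.

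Every fold enrichment was a whole number of steps, each 0.230 in replicate 1 and 0.221 in replicate 2, to within 7.91e-05 of a step. Height was computed as fold enrichment divided by the step, minus 1. Percentiles are among the peaks of the same replicate. Genes, TSSs and exons came from GENCODE release 44. A peak was assigned to a member's TSS first, and the midpoint decided between exon and intron of the canonical transcript. Motif windows were 300 bp. The genes named beside the members are those with a TSS in a member locus or with a body over a peak there, the 5 with the strongest TSS peaks in each other list, and up to 10 without one. Some items that this rule names are not reported here. Each list and the members were chosen with earlier results of these data known, and no test was made. The functions were tested on simulated peaks. Computation used Python 3.11.15 with scipy 1.17.1 and numpy 2.4.6, and plots were drawn with matplotlib 3.10.9. The canonical TSS, the CpG limit and the count over last exons were chosen after seeing the data.

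Alternatives were other distances to the TSS, other sets of TSSs, only the 50000 strongest peaks or those with −log10 q from 10 upwards, other flanks and overlaps, percentiles within a chromosome arm (arms were split at the longest gap between peaks) and the omission of each replicate.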

Additional observations from a re-analysis of the deposited data

How the results depend on the processing

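For 15 results, 66 alternatives were computed. The results are counts, a median, fold enrichments and percentiles of 1 condition, so they have no direction that could reverse. Of the alternatives, 50 left the value within 1.5 times a count or within the spread between replicates, and 16 moved it. The number of members with a TSS peak was 1 within 100 bp and 7 within 3 kb, in place of 3. The number of other blood lineage genes with one, 32, was 21 when only the most 5′ TSS counted, 17 with the 50000 strongest peaks and 15 with the canonical TSS, an alternative chosen after seeing the data. Without a flank, the peaks at the member loci numbered 35 in replicate 1 and 36 in replicate 2 with 28 regions in both, and with 50 kb they numbered 147, 150 and 127, since less or more sequence entered. With the 50000 strongest peaks they numbered 12, 14 and 12, since fewer peaks entered. The median peaks per 100 kb was 13.1 without a flank. The LCP2 TSS peak stood at percentile 90.9 of its chromosome arm and 91.4 of all peaks, and the cause was not tested.

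With each replicate alone, the number of members with a TSS peak stayed at 3, that of other blood lineage genes was from 32 to 33, that of luminal breast genes 18 and that of other lineage genes from 11 to 12. No paired analysis was possible because there was only 1 condition. Signals below the threshold of the peak caller were not seen, and with 2 replicates the SDs are rough.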
